A study of Mus musculus with 2 samples.

Results

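E-cadherin (*Cdh1*) and N-cadherin (*Cdh2*) were examined together with a set of epithelial genes and their regulators in mouse embryonic stem (ES) cells and embryonic forebrain. The set holds 10 genes, chosen by symbol for what they are known to do. They are the classical cadherins *Cdh1* and *Cdh2*, the epithelial surface and junction genes *Epcam* and *Cldn6*, the keratins *Krt8* and *Krt18*, the epithelial regulators *Esrp1* and *Grhl2*, and the repressors *Zeb1* and *Zeb2*. All 10 were found among the 29311 genes listed for both samples. The study sequenced rRNA-depleted total RNA as stranded single-end libraries, with 1 library per cell type and hence no replicates. The ES cells were of the E14 line, wild type (WT), and were grown without feeder cells on gelatin in serum and LIF. The forebrain cells were taken from WT embryos of the strain B6CBAF1/J at E10.5. By the methods of the paper their RNA came from single embryos, whereas the sample labels give a number of cells. This sample is called forebrain below.

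Classical cadherins join neighbouring cells by binding to the same cadherin on the next cell and are anchored to actin through catenins. *Cdh1* is carried by simple epithelia, by the epiblast and by ES cells, whereas the early neuroepithelium loses it and takes up *Cdh2* as the neural plate forms and folds. Such an exchange also accompanies the epithelial-to-mesenchymal transition, in which factors of the Zeb, Snail and Twist families repress epithelial genes, while Grainyhead-like factors, epithelial splicing regulators and the miR-200 microRNAs act on the epithelial side.

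Values are the deposited RPKM (reads per kilobase of exon, with a scaling set per sample), which allow levels of different genes to be compared because they are per length. The median of all listed genes was 48.9 for ES cells and 62.4 for forebrain. The libraries held 42754175 and 59767537 reads on genes, respectively, as inferred from the value that 1 read contributes. All intervals below are 95% intervals for the sampling of these inferred reads (exact Poisson for levels, Clopper-Pearson for ratios). Where a within-sample ratio is compared between the samples, the interval is a normal approximation on the log scale. All of these intervals cover counting error only, and with 1 sample per group no difference has a replicate check. The labels were first set against defining markers. All 8 pluripotency markers were past 2-fold higher in ES cells, and all 9 listed markers of the forebrain neuroepithelium and its neurons were past 2-fold higher in forebrain. The forebrain sample also held RNA of other cell types. Past 2-fold higher there were 9 of 10 markers of head mesenchyme and neural crest, 7 of 8 endothelial markers and all 5 listed erythroid markers. Of all listed genes, 23.3% were past 2-fold higher in ES cells and 25.8% in forebrain.

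Of *Cdh1* and *Cdh2*, a different gene was the higher one in each sample. In ES cells *Cdh1* had an RPKM of 2332 (2283 to 2381) from 8731 reads, and in forebrain it had 66.2 (59.7 to 73.4) from 370 reads. *Cdh1* was therefore 35.2-fold higher in ES cells (31.7 to 39.1). *Cdh2* had 56.5 (50.9 to 62.5) from 373 reads in ES cells and 947.8 (929 to 967) from 9331 reads in forebrain, 16.8-fold higher in forebrain (15.1 to 18.7). Neither gene was silent in the sample where it was low, since at least 370 reads stood behind each low value. In bulk samples such as these, fewer cells of a type and less RNA per cell cannot be told apart.

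The exchange is seen most directly within a sample, where the ratio of both genes does not depend on the scaling of the library. There were 41.3 units of *Cdh1* RPKM for 1 of *Cdh2* in ES cells (37.2 to 45.9). In E10.5 forebrain the ratio was 0.0699 (0.0629 to 0.0776), or 14.3 units of *Cdh2* for 1 of *Cdh1*. The ratio thus differed 590.4-fold between the samples (509.8 to 683.7), which is 9.21 on the log2 scale. *Cdh1* (chr8:109127251-109194146, plus strand, mm9) stood at percentile 93.9 of listed genes in ES cells and at 50.5 in forebrain. *Cdh2* (chr18:16747386-16967755, minus strand) moved the other way, from 51.6 to 87.1. Each cadherin thus lay near the middle of the listed genes in the sample where the other was high. A copy of 34.0% of the *Cdh2* transcript lies in *Slc24a2* with 99.4% identity. Over all its exons that gene had 2 reads in ES cells and 41 in forebrain, which does not measure the reads on the copy. How the counting treated reads with several positions is not given, so the *Cdh2* values carry this uncertainty.

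**Figure D1:**
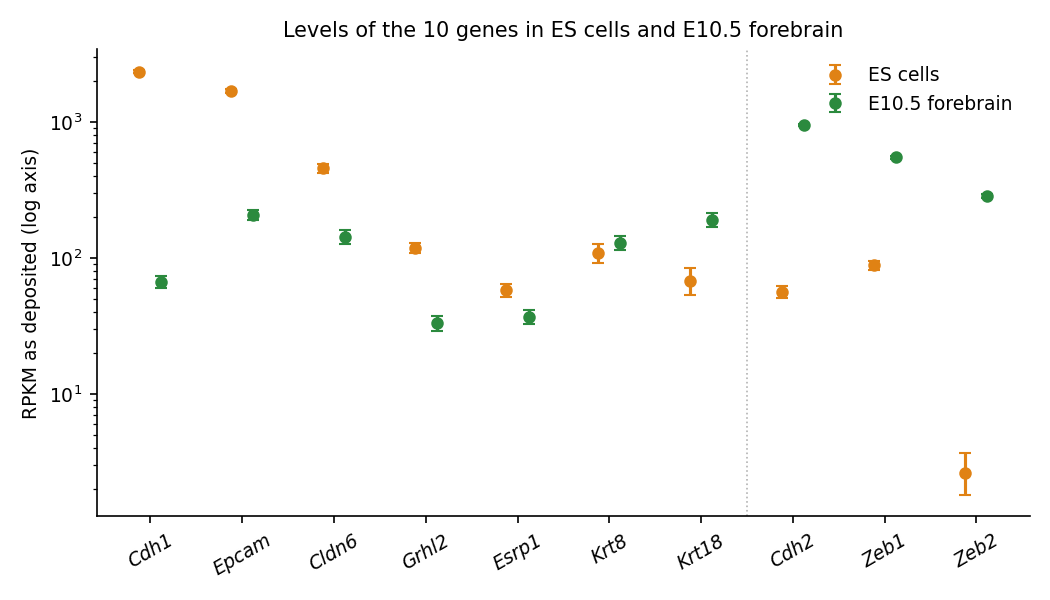
RPKM as deposited (log axis) of the 10 genes in ES cells (orange) and E10.5 forebrain (green), 1 library each, with 95% counting intervals as bars. *Cdh1*, *Epcam*, *Cldn6*, *Grhl2* and, by a small distance, *Esrp1* sit higher in ES cells, and *Krt8* overlaps. *Krt18*, *Cdh2*, *Zeb1* and *Zeb2* sit higher in forebrain, *Zeb2* by the widest distance.

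Differences were then counted on log2(RPKM + 1), taken as ES cells minus E10.5 forebrain, a scale that understates the change of low genes. A gene counts as past the fold when this difference exceeds 2-fold. Of the 7 epithelial genes, 4 (*Cdh1*, *Epcam*, *Cldn6* and *Grhl2*) were past 2-fold higher in ES cells, compared with 23.3% of all listed genes. *Krt18* alone was past it in the other direction, and *Esrp1* and *Krt8* stayed within it. On inferred reads per 1000000 reads and kilobase, with a pseudocount of 1, the difference of *Grhl2* was 0.96 and no longer past 2-fold. All 3 of *Cdh2*, *Zeb1* and *Zeb2* were past 2-fold higher in forebrain, compared with 25.8% of all listed genes. Past 4-fold were *Cdh1* and *Epcam* in ES cells, compared with 11.3% of all listed genes, and *Cdh2*, *Zeb1* and *Zeb2* in forebrain, compared with 14.4%. The median difference was 1.66 for the epithelial genes and -4.04 for *Cdh2*, *Zeb1* and *Zeb2*, with -0.01 for all listed genes.

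*Epcam* encodes an adhesion molecule of the epithelial cell surface that is also carried by ES cells. Its RPKM was 1685 (1623 to 1749) in ES cells and 206 (189 to 225) in forebrain, from 2814 and 513 reads. It was 8.18-fold higher in ES cells (7.44 to 9.004), and its position went from percentile 91.6 to 64.1. Although lower than in ES cells, *Epcam* was the highest of the 7 epithelial genes in forebrain, where its interval overlapped that of *Krt18*. *Epcam* exceeded *Cdh1* 3.11-fold in forebrain, whereas *Cdh1* exceeded *Epcam* 1.38-fold (1.33 to 1.44) in ES cells.

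*Cldn6* encodes a claudin, a component of tight junctions, and is known from early embryonic epithelia. Its RPKM was 454 (417 to 494) in ES cells and 143 (126 to 161) in forebrain, from 560 and 263 reads. *Cldn6* was 3.17-fold higher in ES cells (2.74 to 3.69). Both values were above the median of their sample, at percentiles 77.1 and 59.3.

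The regulators *Grhl2* and *Esrp1* were lower than *Cdh1*, *Epcam* and *Cldn6* in both samples. *Grhl2*, a Grainyhead-like transcription factor that activates *Cdh1* and junction genes, had 117.6 (108 to 128) in ES cells and 33.1 (28.8 to 37.7) in forebrain, from 530 and 222 reads. It was 3.55-fold higher in ES cells (3.04 to 4.18). *Esrp1*, which directs the splicing of epithelial isoforms, had 57.7 (51.4 to 64.7) and 37.0 (32.9 to 41.6), from 298 and 285 reads. The 1.56-fold difference of *Esrp1* (1.32 to 1.84, higher in ES cells) exceeded counting error but was the second smallest of the 10 genes. A short stretch of each gene is shared with an antisense transcript, 169 bases with Gm16136 for *Grhl2* and 127 bases with Gm16652 for *Esrp1*. Whether the counting used the strand is not given in the sources used here, so reads in these stretches cannot be assigned to a strand.

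*Krt8* and *Krt18* encode the partner keratins of simple epithelia, which assemble into filaments as pairs of a type II and a type I chain. They did not follow *Cdh1*. *Krt8* had 108.1 (92.2 to 126) in ES cells and 128.7 (114 to 145) in forebrain, from 160 and 284 reads. Its ratio of forebrain over ES cells was 1.19 (0.977 to 1.45), an interval that includes equal levels. *Krt18* had 67.7 (53.8 to 84.9) and 190.1 (170 to 212), from 78 and 325 reads, and was 2.81-fold higher in forebrain (2.18 to 3.63). The genes lie close together on chromosome 15 in opposite orientation (*Krt8* at chr15:101827142-101834773, *Krt18* at chr15:101858647-101862457), and their ratio differed between the samples. *Krt8* over *Krt18* was 1.60 (1.21 to 2.11) in ES cells and 0.677 (0.576 to 0.797) in forebrain, a 2.36-fold change in balance (1.72 to 3.23). Both keratins have copies of high identity elsewhere in the genome. A stretch of 97.9% identity to 96.1% of the *Krt8* transcript lies in *Nlrp4e*, and a copy of *Krt18* with 90.5% identity lies outside annotated genes. A shorter stretch of 148 bases, with 93.2% identity to *Krt18*, lies in *Btbd3*. Over all its exons *Nlrp4e* had 5 reads in ES cells and 1 in forebrain, and *Btbd3* had 419 and 890. These totals do not measure the reads on the copies. How the counting treated reads with several positions is not given in the sources used here, so the keratin values carry this uncertainty.

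*Zeb1* and *Zeb2* encode zinc-finger repressors of *Cdh1* and other epithelial genes, and both act in the development of the nervous system and of neural crest. *Zeb1* (chr18:5591858-5775465, plus strand) had 88.0 (81.6 to 94.8) in ES cells and 548.6 (535 to 562) in forebrain, from 700 and 6503 reads. It was 6.24-fold higher in forebrain (5.76 to 6.75). *Zeb2* (chr2:44839154-44972915, minus strand) had 2.62 (1.81 to 3.68) in ES cells and 284.7 (277 to 292) in forebrain, from 33 and 5341 reads. At 109-fold (77.2 to 158), *Zeb2* showed the widest ratio of RPKM of the 10 genes, with the ES value resting on the fewest reads. The order of the log2 differences, unlike that of the ratios, depends on the pseudocount relative to the scale. On inferred reads per 1000000 reads and kilobase, with a pseudocount of 1, *Zeb2* had -2.70, compared with 4.28 for *Cdh1* and -3.29 for *Cdh2*. With a pseudocount of 0.02 on that scale, the values were -6.38, 5.02 and -4.14, respectively. The repressors thus differed in how low they were in ES cells, where *Zeb1* exceeded *Zeb2* 33.6-fold (23.7 to 49.2). In E10.5 forebrain *Zeb1* exceeded *Zeb2* 1.93-fold (1.86 to 2.00). A lincRNA on the opposite strand of *Zeb2*, Gm13476, overlaps 458 bases of its exons and was itself listed with 0.88 in ES cells and 142.8 in forebrain, so that reads in the overlap cannot be assigned without strand.

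**Figure D2:**
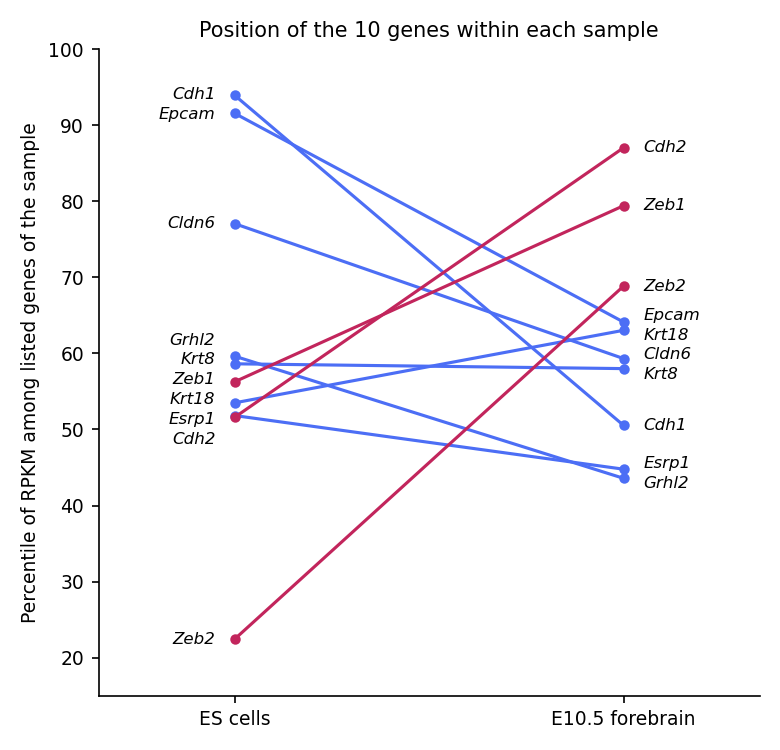
Percentile of the RPKM of each gene among the 29311 listed genes, in ES cells (left) and E10.5 forebrain (right), with epithelial genes in blue and *Cdh2*, *Zeb1* and *Zeb2* in red. The lines of *Cdh1* (93.9 to 50.5) and *Cdh2* (51.6 to 87.1) cross, and the line of *Krt8* is nearly flat (58.6 to 58.0).

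When ordered by level, the 10 genes formed different sequences in the samples. In ES cells *Cdh1* came first, then *Epcam* and *Cldn6*, each apart from its neighbour beyond counting error. *Grhl2*, *Krt8*, *Zeb1*, *Krt18*, *Esrp1* and *Cdh2* followed within a range of 117.6 to 56.5, and each of these overlapped the next in its counting interval. *Zeb2* was last and clearly apart. In E10.5 forebrain *Cdh2*, *Zeb1* and *Zeb2* led in this order, each apart from the next. *Epcam* and *Krt18* came next with overlapping intervals, then *Cldn6* and *Krt8*, which also overlapped. *Cdh1* followed, and *Esrp1* and *Grhl2* closed the sequence and overlapped. The 3 genes of the mesenchymal and neural side thus exceeded every epithelial gene of the set in forebrain, while in ES cells *Zeb1* lay among the lower epithelial genes and *Cdh2* below all 7, with an interval that overlapped those of *Esrp1* and *Krt18*.

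The whole cadherin family was then compared. Of 23 cadherin genes listed, *Cdh1* held 83.3% of their summed RPKM of 2800 in ES cells, and *Cdh2* held 2.02%. In E10.5 forebrain the sum was 4760, of which *Cdh1* held 1.39% and *Cdh2* 19.9%. The highest cadherin in forebrain was not *Cdh2* but *Cdh11*, a cadherin known from mesenchyme, with 2216 in forebrain (46.5% of the sum) and 56.2 in ES cells. The summed markers of head mesenchyme and neural crest were 19454 in forebrain and 290.3 in ES cells, and their part in the values of *Cdh11*, *Cdh2*, *Zeb1* and *Zeb2* was not tested. *Cdh5*, the cadherin of endothelium, had 325.7 and 1.53, beside summed endothelial markers (which include it) of 2989 and 685.9.

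Of the 21 other cadherins, 0 were past 2-fold higher in ES cells and 13 were past it in forebrain, beside 23.3% and 25.8% of all listed genes, and their median difference was -2.33. *Cdh6* had 328.5 in forebrain and 3.71 in ES cells, 88.5-fold higher (44.7 to 205). *Cdh8* had 71.4 in forebrain from 674 reads and 0 reads in ES cells, at least 151-fold higher when 3 reads are taken as the floor in ES cells. The classical cadherins nearest in kind to *Cdh1* and *Cdh2* behaved differently. P-cadherin, *Cdh3*, had 215.5 in ES cells and 253.6 in forebrain, 1.18-fold higher in forebrain (1.07 to 1.29), and R-cadherin, *Cdh4*, had 71.2 and 118.2. Both *Cdh3* and *Cdh4* exceeded *Cdh2* in ES cells.

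**Figure D3:**
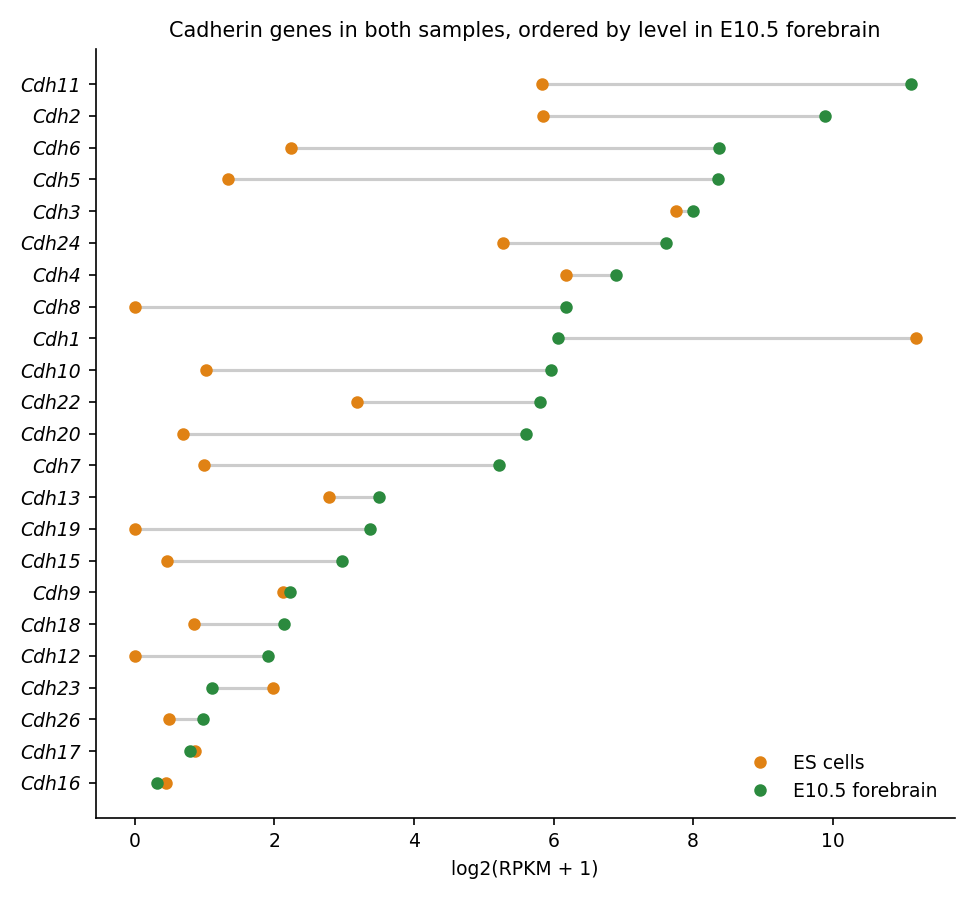
The 23 listed cadherin genes on log2(RPKM + 1) in ES cells (orange) and E10.5 forebrain (green), 1 library each, ordered by level in forebrain. *Cdh1* is the highest gene in ES cells and ninth in forebrain, and the forebrain point lies to the right for most other cadherins.

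The widely expressed catenins *Ctnnb1*, *Ctnna1* and *Ctnnd1* stayed within 2-fold between the samples. Beta-catenin, *Ctnnb1*, had 18558 in ES cells and 24145 in forebrain, and alpha-catenin, *Ctnna1*, had 4357 and 3896. p120-catenin, *Ctnnd1*, had 908.8 and 883, a ratio of ES cells over forebrain of 1.03 (0.994 to 1.07). Their neural paralogs were past 2-fold. *Ctnna2* was 14.6-fold higher in forebrain (12.5 to 17.1), with 30.2 and 440.0, and *Ctnnd2* was 3.30-fold higher there (2.79 to 3.92), with 34.5 and 113.7. Plakoglobin, *Jup*, which serves both adherens junctions and desmosomes, had 894 in ES cells and 153.9 in forebrain, 5.81-fold higher in ES cells (5.45 to 6.19). Of the 13 catenins and cadherin partners, 1 was past 2-fold higher in ES cells, 4 were past it in forebrain and 8 stayed within it. The shares of all listed genes past it were 23.3% in ES cells and 25.8% in forebrain. Beside the neural paralogs, the 4 genes higher in forebrain were *Ctnnbip1*, an inhibitor of beta-catenin (302.2 and 758.5), and the nectin *Pvrl3* (260.7 and 543.3).

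Of 23 listed claudin and tight junction genes other than *Cldn6*, 7 were past 2-fold higher in ES cells and 6 in forebrain, shares near the 23.3% and 25.8% of all listed genes, with a median difference of -0.21. *Cldn4* had 1109 in ES cells and 77.0 in forebrain, a 14.4-fold difference (12.3 to 17.0). *F11r*, a junctional adhesion molecule, had 756 and 143.6. Higher in forebrain were *Cldn5*, known from endothelium, with 25.9 in ES cells and 544.5 in forebrain, and *Cldn11*, which had 0 reads in ES cells and 223.2 in forebrain. Of 10 listed desmosome genes, 3 were past 2-fold higher in ES cells and 1 in forebrain. Those higher in ES cells were *Dsg2*, a desmosomal cadherin, with 261 and 7.80, and the plakophilins *Pkp2*, with 342.9 and 53.9, and *Pkp3*, with 56.6 and 12.01. The gene higher in forebrain was *Dsc3*, with 0 reads in ES cells and 19 in forebrain.

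Among 10 keratins other than *Krt8* and *Krt18*, 3 were past 2-fold higher in ES cells and 6 in forebrain, beside 23.3% and 25.8% of all listed genes. *Krt19*, another keratin of simple epithelia, had 218.4 in ES cells and 54.0 in forebrain, 4.04-fold higher in ES cells (3.29 to 5.04), which is the direction opposite to that of *Krt18*. *Krt23* had 154.1 in ES cells and 1.31, from 3 reads, in forebrain, and *Krt17* had 26.8 and 4.76. *Krt7* had 0.25 in ES cells, from 1 read, and 23.1 in forebrain. *Krt15*, a keratin of stratified epithelium, had 3.97 and 112.1. Among the 6 were also *Krt20*, *Krt5* and *Krt1*, which rested on only 11, 15 and 12 reads in forebrain. For *Krt1* the interval of forebrain over ES cells (0.896 to 37.0) includes equal levels. Of 10 surface ectoderm markers, 5 were past 2-fold higher in forebrain (*Krt5*, *Krt15*, *Trp63*, *Tfap2a* and *Dlx3*) and 2 in ES cells (*Grhl3* and *Perp*). The summed level of the list was 1232 in ES cells and 682 in forebrain, none of it was at 0 in forebrain, and its part in the *Krt18*, *Epcam* and *Cdh1* values of forebrain was not tested.

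Other intermediate filaments included *Nes*, the nestin gene of neural progenitors, which had 182.9 in ES cells and 4127 in forebrain, 22.6-fold higher (21.2 to 24.1). Vimentin (*Vim*), a filament protein often read as mesenchymal, had 15776 and 24191, and stayed within 2-fold. The 9 genes of this list had a median difference of 0.51, with 2 genes past 2-fold in each direction. These counts are near the shares of all listed genes, 23.3% in ES cells and 25.8% in forebrain. The genes past it were *Nes* and the neuronal *Ina* (43.7 and 213.2) in forebrain, and the neurofilament gene *Nefl* (1068 and 407.2) and the lamin gene *Lmna* (718.8 and 206.4) in ES cells.

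The direct paralogs of *Esrp1* and *Grhl2* were past 2-fold higher in ES cells. *Esrp2*, the paralog of *Esrp1*, had 174.1 in ES cells and 53.7 in forebrain, 3.24-fold higher (2.82 to 3.75). *Grhl3* had 296.4 and 36.9, 8.04-fold higher in ES cells (6.66 to 9.85), and exceeded *Grhl2* in ES cells. *Grhl1* had 35.9 and 5.50, from 103 and 23 reads. *Ovol2*, a repressor that keeps cells epithelial, had 43.1 and 1.16 (3 reads), and *Ovol1* had 7.16 and 2.26. Of the 14 regulators in the list without *Esrp1* and *Grhl2*, 9 were past 2-fold higher in ES cells and 2 in forebrain. The shares of all listed genes were 23.3% and 25.8%, and the median difference of the 14 regulators was 2.09. Of these, *Klf4* (898.5 and 37.7) and *Klf5* (484.9 and 5.24) are known also as pluripotency factors, and *Elf3*, an epithelial Ets factor, had 417.8 and 14.95. The regulators past 2-fold in forebrain were *Trp63* (0.15 and 20.7) and *Tfap2a* (19.95 and 43.8), both of the surface ectoderm list.

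Of 14 other surface and protease genes of epithelia, 7 were past 2-fold higher in ES cells, 1 was past it in forebrain and 6 stayed within it. The shares of all listed genes were 23.3% and 25.8%, and the median difference of the 14 genes was 1.40. *Spint2* and *Spint1*, inhibitors of membrane serine proteases, had 3277 and 2055 in ES cells and 149.1 and 50.9 in forebrain. *St14*, the matriptase gene, had 569.1 and 20.9, a 27.2-fold difference (22.5 to 33.0), and *Ap1m2*, an adaptor of epithelial sorting, had 756.5 and 64.6.

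Transcription factors of the epithelial-to-mesenchymal transition went with *Zeb1* and *Zeb2* in direction. Of 10 such factors other than these, 9 were past 2-fold higher in forebrain and 1 in ES cells, with a median difference of -4.43. *Snai1* had 19.6 in ES cells and 94.5 in forebrain, and *Snai2* had 9.32 and 107.5, differences of 4.83-fold (3.19 to 7.58) and 11.5-fold (7.08 to 21.6). *Twist1*, with 12.8 and 1556, was 121-fold higher (75.5 to 208), and it is also among the markers of head mesenchyme, as are *Twist2* and *Prrx1*. The E proteins *Tcf3* (541.4 and 1918) and *Tcf4* (124.9 and 505.1) were well above 0 in both samples. *Snai3* was the exception, with 21.9 from 28 reads in ES cells and 0 reads in forebrain, at least 14.2-fold higher in ES cells at a floor of 3 reads. Over the 10 lists, with each gene counted once, 35 of 127 genes were past 2-fold higher in ES cells and 44 in forebrain, beside the 23.3% and 25.8% of all listed genes. The tenth list is the miR-200 family, treated below. It gave 2 of the 35, and none of its genes reached 10 reads in either sample.

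**Figure D4:**
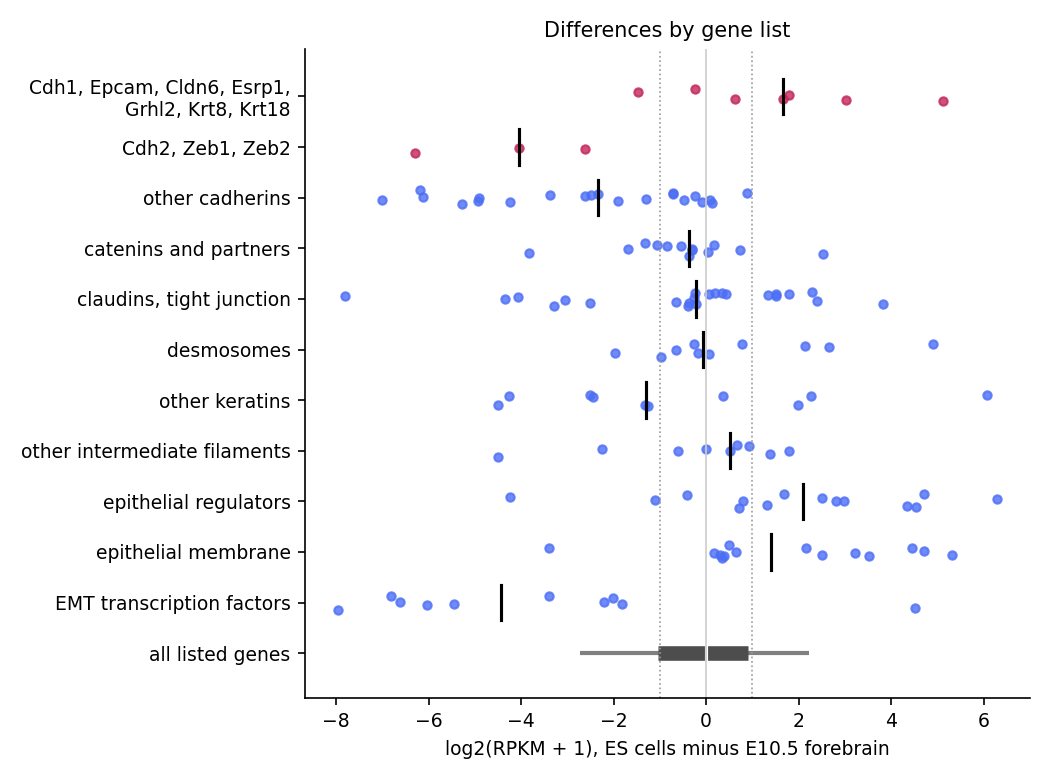
Differences on log2(RPKM + 1), ES cells minus E10.5 forebrain, for the 10 genes (red points) and for the other genes by list (blue points), with the median of each list as a black bar and 2-fold as dotted lines. The bottom bar shows all listed genes (thick, 25 to 75%, thin, 10 to 90%), with the median at -0.01, while the lists of other cadherins (-2.33) and EMT transcription factors (-4.43) lie to the left and the epithelial regulators (2.09) to the right.

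Promoter sequence was looked at because Zeb and Snail factors bind the E-box CACCTG, by which they are known to act on epithelial promoters. RefSeq windows (GRCm38.p6) of the 250 bases before the transcript start were found for *Epcam*, *Cldn6*, *Krt8*, *Krt18* and *Zeb2*. Those of *Cdh1*, *Cdh2*, *Esrp1*, *Grhl2* and *Zeb1* were not analysed here. The windows of *Epcam*, which differed 8.18-fold, and of *Krt18*, which was higher in the sample rich in Zeb factors, are printed 5′ to 3′ on the strand of the gene, with CACCTG or its reverse complement CAGGTG in capitals.
Epcam (chr17:87635729-87635978, plus strand): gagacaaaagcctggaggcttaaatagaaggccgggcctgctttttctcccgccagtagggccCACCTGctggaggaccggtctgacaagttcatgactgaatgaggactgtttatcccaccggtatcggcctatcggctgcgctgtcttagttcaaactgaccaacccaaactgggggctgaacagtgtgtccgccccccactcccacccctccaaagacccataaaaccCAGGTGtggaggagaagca
Krt18 (chr15:102027966-102028215, plus strand): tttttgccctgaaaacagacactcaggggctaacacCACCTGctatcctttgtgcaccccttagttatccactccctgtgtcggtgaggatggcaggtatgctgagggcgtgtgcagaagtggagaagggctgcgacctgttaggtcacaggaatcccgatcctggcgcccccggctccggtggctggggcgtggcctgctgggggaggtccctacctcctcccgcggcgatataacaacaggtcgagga
*Epcam* held the E-box at 2 positions, and *Cldn6*, *Krt8* and *Krt18* held it at 1 position each, counting both strands. None of the 4 windows of *Zeb2* held it. Of all 32851 windows in the table, 17.2% held the motif. The Grainyhead motif CCGGTT and its longer form AACCGGTT, searched in the same way on both strands, were in none of these windows, and in 5.62% and 0.116% of all windows. *Krt18*, which was higher in forebrain, and *Epcam*, which was lower, thus both held the E-box, and such a match is a description of letters only.

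The microRNAs of the miR-200 family target the *Zeb* transcripts, and their mature sequences (RefSeq, GRCm38.p6) are printed because their seeds define the sites searched in *Zeb1* and *Zeb2*. Capitals mark the seed, bases 2 to 8.
miR-200b-3p: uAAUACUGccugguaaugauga
miR-200c-3p: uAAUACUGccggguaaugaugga
miR-429-3p: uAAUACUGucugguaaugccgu
miR-200a-3p: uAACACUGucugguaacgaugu
miR-141-3p: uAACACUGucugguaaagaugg
The first 3 share the seed AAUACUG, which pairs with CAGTATT in a transcript, and the other two share AACACUG, which pairs with CAGTGTT. In the longest annotated 3′ untranslated region of *Zeb2* (4939 bases), CAGTATT was found 5 times and CAGTGTT 4 times. The counts were also 5 and 4 in that of *Zeb1* (2401 bases), where the longest one per gene was used. Among 806 such regions of a length like that of *Zeb2* the median was 1 site and 68.7% held at least 1. Among 2676 of a length like that of *Zeb1* the median was 0 and 46.5% held at least 1. In both comparisons the only region with as many sites as the *Zeb* gene was its own. A site of each kind in *Zeb2* is shown, with the match to the seed in capitals and 8 bases on either side (mm9).
Zeb2 (chr2:44843629-44843635, minus strand): cagtgcatCAGTATTacgattcc
Zeb2 (chr2:44843346-44843352, minus strand): tccttgtaCAGTGTTcagagggt
The level of the microRNAs themselves was not measured, since libraries of total RNA prepared in this way do not capture mature microRNAs well. Reads on the short precursor genes were few. *Mir200a* had 8 reads in ES cells and 4 in forebrain, *Mir429* had 6 and 5, and *Mir141* had 1 and 0, while the other two genes of the family are not listed. No difference between the samples was detectable for these 3 genes at this depth, as the intervals of ES cells over forebrain of *Mir200a* (0.799 to 13.5) and *Mir429* (0.455 to 7.41) include equal levels. By RPKM alone, 2 of the 3 were past 2-fold higher in ES cells and are counted in the total over the 10 lists.

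Genes most like *Cdh1* and *Cdh2* were taken as the 5 protein-coding genes at the smallest distance on log2(RPKM + 1) over both samples. With only 2 samples, likeness means a like pair of levels and nothing more. Nearest to *Cdh1* were *Trim6* (2390 in ES cells and 77.6 in forebrain), *Chchd10*, *Lrrc34*, *Spint1* and *Epha2*, at distances of 0.23 to 0.54. Nearest to *Cdh2* were *Jun* (61.3 and 920.3), *Igdcc3*, *Smad3*, *Mex3b* and *Sept3*, at 0.12 to 0.23. Within a distance of 0.5 lay 4 genes for *Cdh1* and 29 for *Cdh2*, of 19619 others, so that the pair of levels of *Cdh1* was shared by fewer genes. *Spint1*, of the epithelial surface list, was the gene of these 5 that also belongs to the lists above.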

How the data were processed

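Reads were aligned by the authors to the mouse assembly NCBIM37, or mm9, on the HTSstation platform, and the submitters' processing notes name Bowtie 0.12.7. The authors deposited a single RPKM value per gene and sample, without replicates (0 columns were not mapped to a sample). The RPKM is 52.2 times, in ES cells, and 49.0 times, in E10.5 forebrain, the value expected per 1000000 reads on genes. The value multiplied by exonic length in kb lay within 0.05 of a whole multiple of 1.22 (ES cells, 59.6% of 6560 low genes) or 0.819 (forebrain, 61.4% of 6970), which was taken as 1 read. The rest includes parts of a read. Inferred reads were used for intervals, for floors of 3 reads, for the minimum of 10 reads and in alternatives.

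Lengths and coordinates came from GENCODE vM1, in which all 29311 genes had equal coordinates. Genes were named by rule: the 10 genes, in each list those past 2-fold and at an RPKM of at least 20, highest first, and direct paralogs. Other list genes are given where a count of a list turns on them. The genes and lists were chosen with earlier results of these data known. The search for microRNA sites was chosen after seeing the data. Copies were sought with blastn 2.17.0 (at least 90% identity over 100 bases). Scripts, tested on simulated data, ran under Python 3.11.15 (scipy 1.17.1, numpy 2.4.6, matplotlib 3.10.9, pandas 2.3.3). Alternatives covered pseudocounts, scaling, the fold, a minimum of 10 reads and gene length. Some genes of the lists are not reported here by name.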

Additional observations from a re-analysis of the deposited data

How the results depend on the processing

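No direction was reversed in 133 alternatives over the 10 genes, their counts and medians, both ratios and the gene lists. Many of these could not reverse one. A changed pseudocount keeps the sign of a difference, and counts were labelled only as like or moved. Of 63 that bear on the counts, medians and ratios, 53 gave a like value and 10 moved. Of the 70 that bear on the differences of single genes, 53 gave a like value and 17 moved. Like is a loose label for counts: 35 list genes past 2-fold in ES cells against 25 at 4-fold were called like. Dividing by the sum of RPKM moved the medians to 1.39 (epithelial genes) and -4.31 (*Cdh2*, *Zeb1* and *Zeb2*), while the median of all genes went to -0.26. Inferred reads per 1000000 reads and kb with a pseudocount of 1 gave 0.96 and -2.70, with 22 list genes past 2-fold in ES cells and 24 in forebrain, because 1 is a larger share of these smaller values. A pseudocount of 0.02 on that scale, added after seeing the data, moved no result. It is close to the main pseudocount of 1 on the deposited RPKM, so it nearly repeats the main setting and is no separate check. At 4-fold, 2 epithelial genes were past the fold in ES cells and 0 in forebrain. Reads without division by length gave a *Cdh1* to *Cdh2* ratio of 23.4 in ES cells and 0.0397 in forebrain. Over the alternatives the difference of *Zeb2* ran widest, from -6.71 to -2.70, that of *Esrp1* ran from 0.26 to 0.71, that of *Krt8* from -0.52 to -0.16 and that of *Grhl2* from 0.96 to 1.88. Adding all reads of *Nlrp4e*, the gene in which the copy of *Krt8* lies, gave *Krt8* to *Krt18* ratios of 1.64 and 0.680. Those reads were not limited to the copy. The *Krt18* copy outside annotated genes could not be added, and the short stretch in *Btbd3* was not added. Reads lost to copies therefore remain unmeasured. Summing annotated pseudogenes of the same name was not run because none is listed. No paired analysis was possible because each group has 1 sample, and no replicate could be left out. The depth limits *Zeb2* in ES cells (33 reads) and the microRNA genes most.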
